A study of Homo sapiens with 9 samples.

Results

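The nuclear genome encodes most subunits of the oxidative phosphorylation machinery, and 91 such genes were followed here in a lung cancer line that had lost either ATPase of the SWI/SNF chromatin remodelling complex. They are the protein-coding genes of GENCODE release 29 outside the mitochondrial chromosome whose symbols begin NDUFA, NDUFB, NDUFC, NDUFS, NDUFV, UQCR, COX4I, COX5, COX6, COX7, COX8 or ATP5, together with SDHA, SDHB, SDHC and SDHD, without the NDUFAF assembly factors. The deposited files cover 58237 genes, and all 91 members were among them. Of the members, 37 belong to complex I, 4 to complex II, 9 to complex III, 19 to complex IV and 20 to complex V, and 2 are readthrough transcripts that join a subunit gene to its neighbour. In all, 85 members held enough reads to be tested. The 6 that did not, COX4I2, COX6A2, COX7A1, COX8C, ATP5MGL and NDUFC2-KCTD14, had at most 49 reads over the 9 libraries. Values are CPM, read counts scaled to library size by TMM, or, where genes are compared with each other, TPM, which also divides by transcript length.

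The cells are the established line H358, from a human non-small cell lung cancer, in 3 genotypes of 3 RNA-seq libraries each: parental, BRG1 knockout and BRM knockout, both knockouts made with CRISPR. BRG1, encoded by SMARCA4, and BRM, encoded by SMARCA2, are alternative motors of the same remodelling complex. All groups shared the same medium, RPMI with fetal bovine serum. The labels do not say whether a knockout is 1 clone or a pool, whether replicates were separate cultures, or whether the parental cells went through editing, so a p-value here weighs a difference against the scatter of these libraries alone, which may be only technical. SMARCA4 fell from 224 ± 17.4 CPM (SD, n = 3) in the parental line to 22.9 ± 1.51 in the BRG1 knockout, and SMARCA2 from 54.3 ± 4.47 to 10.6 ± 1.34 in the BRM knockout (log2 changes -3.29 and -2.36; edgeR quasi-likelihood test, Benjamini-Hochberg adjusted p = 4.1e-07 and 1.1e-04).

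Libraries held between 31969961 and 40679073 estimated reads. Epithelial markers (KRT8, KRT18, KRT19, EPCAM, CDH1) summed to between 4705 and 5472 CPM in parental and BRM knockout libraries and to 797, 1176 and 422 in the BRG1 knockout, where 4 of 5 were called lower. Fibroblast markers summed to between 32.3 and 63.4 CPM in parental, 82.6 and 127 in BRM knockout and 396 to 1034 in BRG1 knockout libraries, where 5 of the 7 tested were called higher. Blood markers never summed above 3.64 CPM, and CD3E and ITGAM were at or near 0. Endothelial markers summed to between 48.3 and 75.6 CPM in the BRM knockout, nearly all of it KDR, and to at most 9.86 elsewhere. BRG1 knockout 3 stood apart within its group: ribosomal protein genes took 10.1%, 10.7% and 5.77% of reads in BRG1 knockouts 1, 2 and 3, against 4.92% to 6.27% in the other libraries. The members' median level put these 3 libraries in the same order, though with other gaps, as given below. The part of that difference in the members' calls was not tested.

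Oxidative phosphorylation takes place in the inner mitochondrial membrane. Complex I and complex II pass electrons from NADH and succinate to coenzyme Q, complex III passes them on to cytochrome c, and complex IV hands them to oxygen. Complexes I, III and IV pump protons as they do so, and complex V, the ATP synthase, lets the protons back through a rotating ring of c subunits to make ATP. Complex II is wholly encoded in the nucleus, whereas the other complexes join nuclear subunits to a few made inside the organelle, so both genomes must supply matching parts. Several subunits come as a common form and a copy used in a particular tissue, as in heart, testis or hypoxic cells.

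In parental H358 the members were among the abundant messages. The summed level of the 91 genes was 18974 ± 404 TPM (SD, n = 3), of which complex V supplied 5746 ± 35.2, complex I 5527 ± 85.6, complex IV 5189 ± 159, complex III 1929 ± 122 and complex II 574 ± 19.1. Among the members tested, 79 of 85 exceeded 10 TPM on average over the 9 libraries, and levels per length spanned from 1.55 TPM (UQCRHL) to 887 TPM (COX4I1). The most abundant member by this average was NDUFS5 in complex I (612 TPM), SDHC in complex II (208 TPM), UQCRH in complex III (552 TPM), COX4I1 in complex IV and ATP5ME in complex V (817 TPM). In the parental line alone COX8A, the small subunit VIII of cytochrome c oxidase, was highest at 1283 ± 57.9 TPM. At the low end stood UQCRHL, an intronless near-copy of UQCRH with which reads may be exchanged. NDUFA6 was listed at 2.22 TPM. Its protein-coding transcript ENST00000498737, listed in the files in another version than in GENCODE release 29, had 0 reads in 8 of the 9 libraries. The NDUFA6 level may therefore reflect the quantification and is not read as a low level of the gene.

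**Figure D1:**
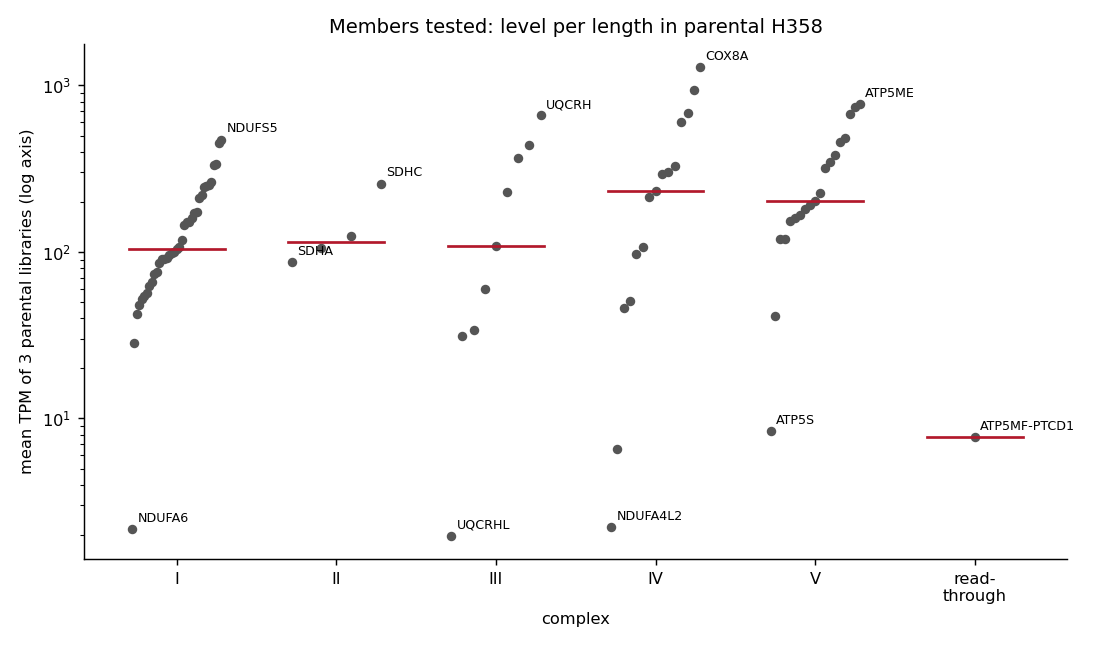
Mean TPM of the 3 parental libraries (log axis) for each of the 85 members tested, by complex, ordered by level within a complex; red lines are medians, and the highest and lowest members are named. COX8A is highest at 1283 TPM, and UQCRHL and NDUFA4L2 lie near 2 TPM, as does NDUFA6, whose level is uncertain.

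The members' promoters were compared with those of all protein-coding genes for short sequence cores. RefSeq promoter windows on GRCh38.p14, from 250 bases before to 50 after the start, were matched for 69 of 91 members, and short letters known from respiratory gene promoters were searched on both strands. The core of NRF1, nuclear respiratory factor 1 (GCATGCG), was present in 13 windows (18.8%), against 5.14% of 15842 protein-coding promoters. The ETS core bound by GABP, also called NRF-2 (CCGGAAG), was in 19 (27.5%) against 14.2%, and the YY1 core (AAGATGG) in 16 (23.2%) against 6.4%. The SP1 core (GGGCGG) was as frequent in members, 41 windows (59.4%), as in all promoters (58.5%), and the E-box CACGTG was in 7 (10.1%) against 8.88%. At least 1 of the NRF1, ETS and YY1 cores was present in 36 windows (52.2%), against 23% of all. A match is a run of letters, not a shown binding site.

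The 3 promoters chosen to show these cores belong to called members of complex IV, the first pair to genes that fell in both knockouts and the last to a gene that rose in the BRG1 knockout. They are the 250 bases before the start of COX8A (chr11:63974370-63974619, + strand), COX6A1 (chr12:120437863-120438112, + strand) and COX5B (chr2:97645812-97646061, + strand), 5′ to 3′, from RefSeq on GRCh38.p14, with NRF1 and ETS cores in capitals; a CGCATGCG run reads as the NRF1 core on both strands.
COX8A: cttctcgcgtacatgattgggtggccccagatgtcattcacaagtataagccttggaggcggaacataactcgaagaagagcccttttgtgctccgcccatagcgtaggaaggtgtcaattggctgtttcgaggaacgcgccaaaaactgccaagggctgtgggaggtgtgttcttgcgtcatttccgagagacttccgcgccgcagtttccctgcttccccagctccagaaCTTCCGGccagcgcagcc
COX6A1: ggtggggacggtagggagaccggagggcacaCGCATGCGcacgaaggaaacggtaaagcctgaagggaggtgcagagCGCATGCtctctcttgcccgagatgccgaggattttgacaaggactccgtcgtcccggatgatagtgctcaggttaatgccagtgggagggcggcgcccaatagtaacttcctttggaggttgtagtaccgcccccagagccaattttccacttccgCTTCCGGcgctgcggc
COX5B: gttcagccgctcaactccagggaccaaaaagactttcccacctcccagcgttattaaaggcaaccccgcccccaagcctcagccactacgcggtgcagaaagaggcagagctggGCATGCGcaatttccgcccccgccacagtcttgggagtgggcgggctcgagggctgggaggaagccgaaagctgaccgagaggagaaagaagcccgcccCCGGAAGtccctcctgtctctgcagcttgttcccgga
An ETS core lies close to the start in all 3, and NRF1 cores lie farther upstream in COX6A1 and COX5B. These promoters were picked to show the cores, so an ETS core in each says nothing of the direction of change. Over the 69 member windows 27.5% held an ETS core. Those of UQCRC2, NDUFA10 and ATP5PO, called higher in the BRG1 knockout, did not. Any part of these cores in the changes was not tested.

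The first question was how the members moved when BRG1 was lost. In the BRG1 knockout 14 of the 85 members tested were called higher and 3 lower (edgeR quasi-likelihood test, Benjamini-Hochberg adjusted p under 0.05), against 43.5% of all 18205 genes called, 21.6% higher and 21.9% lower. The members' share, 20%, lay below that background, and their changes were small: the median size of a member's log2 change was 0.26, against 0.61 over all genes, and 5.88% of members moved more than 2-fold, against 33.4%. The median log2 change was 0.14, against -0.01 for all genes. Complex IV had the most calls for its size, 5 higher and 2 lower of 15; complex I had 6 and 1 of 37, complex III 1 and 0 of 9, complex V 2 and 0 of 19, and complex II none of 4. Since these are bulk samples, fewer cells of a type and less RNA per cell cannot be told apart.

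**Figure D2:**
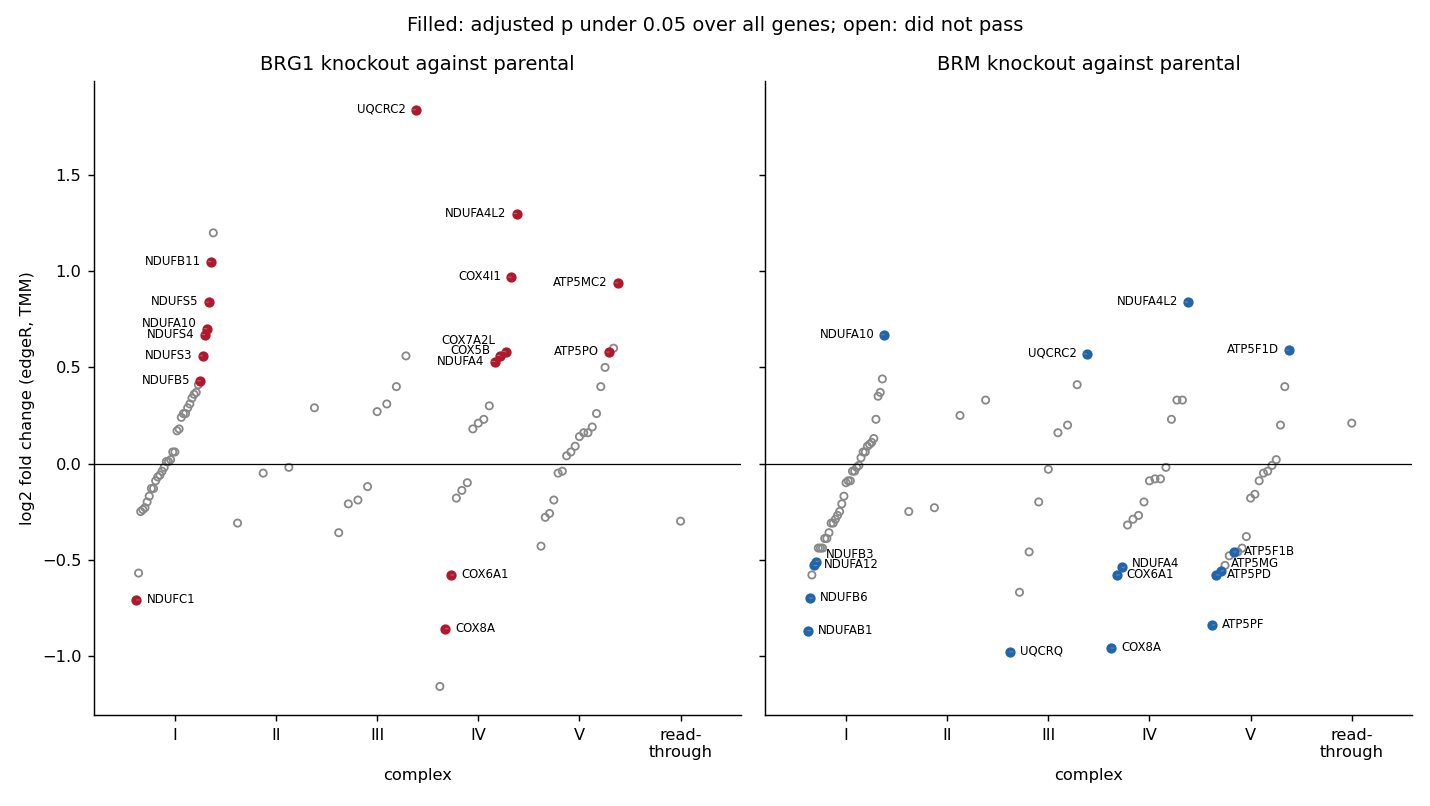
Log2 fold change of each of the 85 members tested (vertical axis) by complex (horizontal axis), for the BRG1 knockout (left) and the BRM knockout (right), each against the same 3 parental libraries. Filled points passed an adjusted p under 0.05 over all genes; 14 lie above and 3 below 0 at left, and 4 above and 12 below at right.

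UQCRC2, a core protein of complex III, rose most. It stood at 35.4, 26.3 and 30.7 CPM in the parental libraries and at 104, 104 and 121 in the BRG1 knockout, a log2 change of 1.84 ± 0.21 (SE; edgeR adjusted p = 6.8e-05). The groups did not overlap, and BRG1 knockout 3, low for most members, was here the highest library. Here and below, separation of groups in a called gene describes values that the test had already used. It is no further support for the call, and its share over all genes is not given. UQCRC2 lies at chr16:21952660-21983660 on hg38, in the part of the short arm that holds NDUFAB1 too (chr16:23581002-23596356). The level of NDUFAB1 in the BRG1 knockout, 61.8, 84.6 and 56.7 CPM, straddled its parental 65.9, 66.0 and 63.3. Any part of the chromosome region in the UQCRC2 rise was not tested, and 1 neighbour cannot show it. UQCRC1, the partner core protein, gave 283, 289 and 282 CPM in parental and 216, 306 and 217 in BRG1 knockout libraries and did not pass (log2 change -0.21, edgeR adjusted p = 0.35). The pair of core proteins thus differed within 1 complex.

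In complex I 5 of the 6 called rises were in accessory subunits. NDUFB11, a subunit of the membrane arm, went from 68.2, 66.5 and 58.9 CPM to 131, 181 and 90.2 (log2 change 1.05 ± 0.22, edgeR adjusted p = 0.0034). NDUFS5, which sits on the side of the intermembrane space, went from 95.6, 89.4 and 83.0 CPM to 148, 205 and 126 (0.84 ± 0.18, edgeR adjusted p = 0.0034). For NDUFA10, the 3 parental libraries lay between 69.3 and 74.5 CPM and the 3 knockout libraries at 121, 126 and 99 (0.70 ± 0.14, edgeR adjusted p = 0.002). All 3 genes kept their groups apart in every library, with BRG1 knockout 2 highest each time. NDUFS4, NDUFS3 and NDUFB5 were also called higher, with log2 changes of 0.67, 0.56 and 0.43. NDUFC1, another membrane-arm subunit, was the only called fall of complex I: 29.5, 27.4 and 29.7 CPM against 17.5, 23.3 and 12.2 (-0.71 ± 0.21, edgeR adjusted p = 0.019). Of the 7 core subunits, which carry the flavin and iron-sulfur centres, 1 of 7 was called, NDUFS3.

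Complex IV, cytochrome c oxidase, moved both ways. COX4I1, the ubiquitous form of the largest nuclear subunit, was at 215, 195 and 204 CPM in parental libraries and at 383, 490 and 327 in the BRG1 knockout (log2 change 0.97 ± 0.16, edgeR adjusted p = 7.6e-04). COX8A was at 211, 204 and 204 CPM and fell to 103, 148 and 89.7 (-0.86 ± 0.19, edgeR adjusted p = 0.0042). COX6A1, the ubiquitous form of subunit VIa, was at 204, 202 and 178 CPM and fell to 114, 166 and 112 (-0.58 ± 0.17, edgeR adjusted p = 0.017). In each of these genes the groups were apart: all BRG1 knockout libraries of COX4I1 lay above the parental ones, and all of COX8A and COX6A1 below.

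The other called rises of complex IV were NDUFA4L2, NDUFA4, COX7A2L and COX5B. NDUFA4, once counted with complex I and now placed in complex IV, went from 66.9, 67.4 and 63.1 CPM to 87.0, 113 and 84.4 (log2 change 0.53 ± 0.14, edgeR adjusted p = 0.012). NDUFA4L2, its hypoxia-inducible copy, was low throughout, at 1.47, 1.25 and 1.43 CPM against 3.52, 3.71 and 3.04 (1.30 ± 0.30, edgeR adjusted p = 0.0047). COX7A2L, which helps to join complexes III and IV into supercomplexes, went from 63.0, 56.3 and 57.1 CPM to 87.7, 95.5 and 79.8 (0.58 ± 0.16, edgeR adjusted p = 0.013). Every library of the knockout lay above every parental one for these 3 genes. COX5B rose by 0.56, with 1 knockout library (75.5 CPM) level with the highest parental one (75.7).

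Complex V had 2 calls. ATP5MC2, 1 of 3 genes that encode the same mature c subunit of the rotor ring, went from 122, 106 and 90.5 CPM to 220, 242 and 148 (log2 change 0.94 ± 0.20, edgeR adjusted p = 0.0036). ATP5PO, the oligomycin sensitivity protein that ties the catalytic head to the side stalk, went from 73.6, 73.0 and 74.0 CPM to 99.7, 129 and 100 (0.58 ± 0.14, edgeR adjusted p = 0.0064). Neither gene's groups overlapped. None of the 5 subunits of the catalytic head and its rotor passed by edgeR (1 of 5 at an unadjusted p under 0.05, 1 by DESeq2, 0 by limma voom). ATP5F1E came nearest, at 0.60 (edgeR adjusted p = 0.05), with 1 knockout library of 97.6 CPM inside the parental range. ATP5IF1, which inhibits the enzyme when it runs backwards, was at 70.4, 58.2 and 72.5 CPM and at 50.6, 58.5 and 40.4 in the knockout (-0.43 ± 0.16, edgeR adjusted p = 0.051).

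Succinate dehydrogenase, complex II, gave 0 calls of 4 in any comparison by edgeR. At an unadjusted p under 0.05 it gave 1 with BRG1 loss, 0 with BRM loss and 1 between the knockouts. DESeq2 called SDHD with BRG1 loss and SDHC in the other comparisons, and limma voom called 0. SDHA, the flavoprotein, was at 127, 127 and 129 CPM in parental, 144, 173 and 152 in BRG1 knockout and 142, 171 and 144 in BRM knockout libraries (log2 changes 0.29 and 0.25, edgeR adjusted p = 0.1 and 0.16). SDHD, a membrane anchor, was at 103, 94.4 and 103 CPM, 77.3, 79.9 and 84.8, and 78.1, 92.1 and 82.5 (-0.31 and -0.25, edgeR adjusted p = 0.07 and 0.15). SDHB, the iron-sulfur protein, and SDHC, the other anchor, had log2 differences between -0.23 and 0.33 in either knockout. A p that misses the threshold does not show that these levels were equal.

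BRM loss gave a different count. Of the 85 members tested 4 were called higher and 12 lower, against 37.4% of all genes called, 21% higher and 16.4% lower. The members' share, 18.8%, again lay below the background, and the median log2 change was -0.10 against 0.09 for all genes. No member moved more than 2-fold, against 28.1% of all genes. By complex, 1 was higher and 4 lower of 37 in complex I, 1 and 1 of 9 in complex III, 1 and 3 of 15 in complex IV, and 1 and 4 of 19 in complex V. The same 3 parental libraries served both knockouts, so the values of these comparisons are set side by side and not correlated. Without BRG1 knockout 2 or 3, whose libraries enter the same fit, there were 29 lower calls with BRM loss, and the members' median became -0.21 and -0.23, with that of all genes at 0.02 and 0.00; the cause was not tested. Without parental 2, parental 3 or BRM knockout 3 there were 6, 7 and 5 lower calls. The 4 higher calls became 1 without parental 2, parental 3, BRG1 knockout 1 or BRM knockout 2, and 2 without BRG1 knockout 3, BRM knockout 1 or BRM knockout 3.

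Large falls were called in complexes III, I, IV and V, that of complex IV being COX8A, given below. UQCRQ, the ubiquinone-binding small subunit of complex III, went from 133, 113 and 118 CPM to 65.0, 63.5 and 56.2 (log2 change -0.98 ± 0.22, edgeR adjusted p = 0.0058). NDUFAB1, the mitochondrial acyl carrier protein that doubles as a subunit of complex I, went from 65.9, 66.0 and 63.3 CPM to 35.5, 37.2 and 33.8 (-0.87 ± 0.16, edgeR adjusted p = 0.0021). ATP5PF, coupling factor 6 of the side stalk, went from 62.6, 61.1 and 60.6 CPM to 34.0, 33.1 and 36.0 (-0.84 ± 0.17, edgeR adjusted p = 0.0035). For UQCRQ, NDUFAB1 and ATP5PF the knockout libraries lay close together and below every parental library.

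Further falls in the BRM knockout came in complexes I, IV and V. NDUFB6, of the complex I membrane arm, went from 24.9, 20.4 and 25.4 CPM to 13.7, 14.6 and 15.0 (log2 change -0.70 ± 0.17, edgeR adjusted p = 0.0082). NDUFA12 went from 38.2, 36.7 and 35.8 CPM to 24.8, 24.5 and 27.2 (-0.53 ± 0.18, edgeR adjusted p = 0.042). ATP5PD and ATP5MG, of the side stalk and membrane part of complex V, changed by -0.58 ± 0.18 and -0.56 ± 0.16 (edgeR adjusted p = 0.03 and 0.019). NDUFB3 and ATP5F1B, the latter the catalytic beta subunit, were called too, at -0.51 and -0.46. COX8A was at 97.7, 124 and 96.8 CPM and COX6A1 at 133, 133 and 125, with log2 changes of -0.96 ± 0.19 and -0.58 ± 0.17 (edgeR adjusted p = 0.0031 and 0.02). Both genes were thus below every parental library in either knockout.

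The 4 called rises with BRM loss were NDUFA4L2, NDUFA10, ATP5F1D and UQCRC2. NDUFA10 was at 117, 107 and 114 CPM, close to its BRG1 knockout values (log2 change 0.67 ± 0.14, edgeR adjusted p = 0.0034). ATP5F1D, the delta subunit of the rotor stalk, went from 49.7, 42.0 and 41.4 CPM to 64.4, 72.3 and 63.9 (0.59 ± 0.19, edgeR adjusted p = 0.031). UQCRC2 was at 44.9, 58.7 and 33.3 CPM, the last of these inside the parental range (0.57 ± 0.20, edgeR adjusted p = 0.049), and NDUFA4L2 at 1.80, 3.34 and 2.33 (0.84 ± 0.30, edgeR adjusted p = 0.045). Only the NDUFA10 call held in all 22 alternative settings. The UQCRC2 call was lost in 15, the NDUFA4L2 call in 18 and the ATP5F1D call in 10, with adjusted p-values up to 0.19, 0.16 and 0.11. For ATP5F1D 6 of those settings left out a single library, and the log2 change ranged from 0.25 to 0.68.

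Between them the knockouts called 27 of 85 members against parental, and 58 in neither. COX6A1 and COX8A were called lower in both, and NDUFA10, NDUFA4L2 and UQCRC2 higher in both. NDUFA4 alone was called in opposite directions: 66.9, 67.4 and 63.1 CPM in parental libraries, 87.0, 113 and 84.4 without BRG1, and 46.7, 44.3 and 44.9 without BRM. No BRM knockout library reached the lowest parental one, and no BRG1 knockout library fell to the highest. The direct comparison of the knockouts gave a log2 difference of 1.06 ± 0.14 for NDUFA4 (edgeR adjusted p = 1.7e-04).

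**Figure D3:**
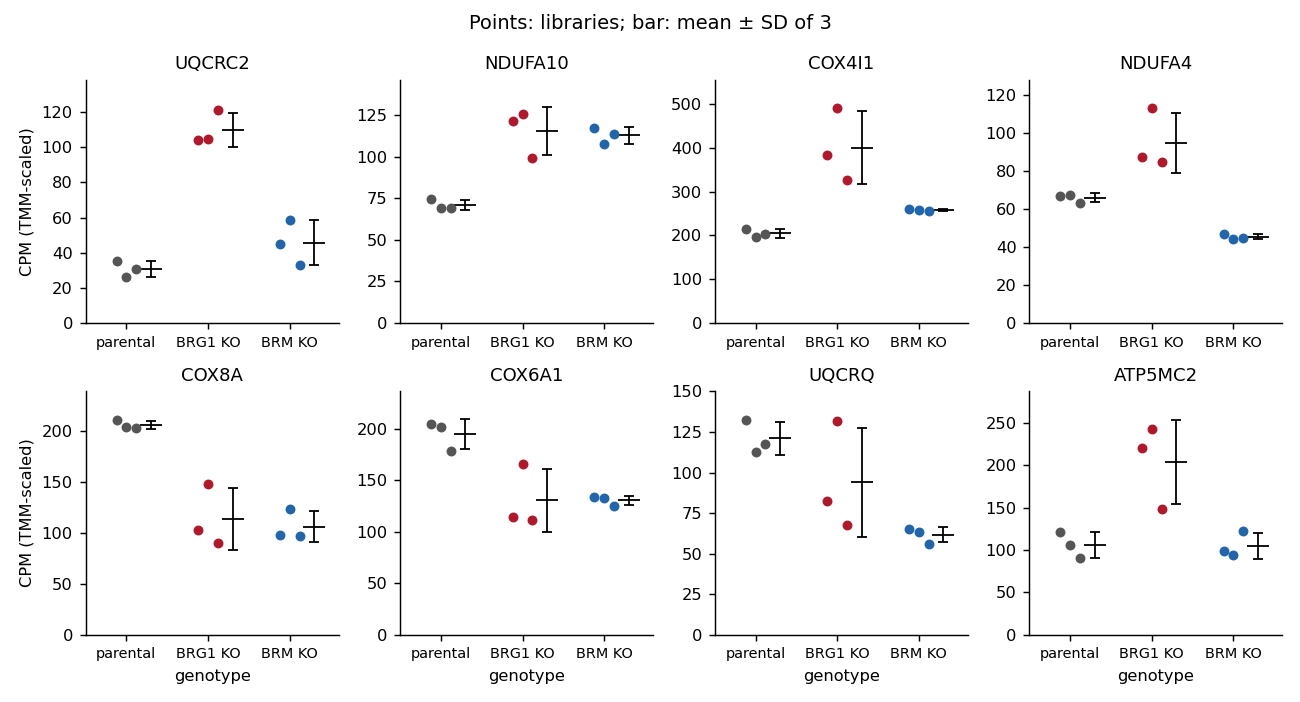
TMM-scaled CPM of 8 members in each of the 9 libraries, by genotype; points are libraries and bars the mean ± SD of 3, with each axis starting at 0. NDUFA10 lies higher and COX8A and COX6A1 lower in both knockouts, NDUFA4 lies at 84.4 to 113 CPM without BRG1 and 44.3 to 46.7 without BRM, and UQCRQ falls in all BRM knockout libraries.

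Set directly against the BRM knockout, the BRG1 knockout had 24 of 85 members higher and 3 lower, against 45.3% of all genes called, 21.6% higher and 23.8% lower. The members' median log2 difference was 0.30, against 0.00 for all genes. Higher calls came from complex I (10 of 37), complex V (7 of 19), complex IV (4 of 15) and complex III (3 of 9), and complex II had none of 4. Among called members NDUFB11 differed most, with 131, 181 and 90.2 CPM in the BRG1 and 61.5, 47.6 and 51.3 in the BRM knockout (log2 difference 1.32 ± 0.23, edgeR adjusted p = 7.8e-04), followed by UQCRC2 at 1.27 ± 0.21 (edgeR adjusted p = 5.4e-04). Each BRG1 knockout library of NDUFB11 and UQCRC2 lay above each BRM knockout library.

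Complex V contributed 7 of the 24 higher calls. ATP5F1E, the epsilon subunit, stood at 153, 194 and 97.6 CPM without BRG1 and 76.2, 72.3 and 64.9 without BRM (log2 difference 1.06 ± 0.23, edgeR adjusted p = 0.0032). ATP5MC2 differed by 0.96 ± 0.20 and ATP5MPL, a small proteolipid, by 0.79 ± 0.23 (edgeR adjusted p = 0.0031 and 0.015). Of the 4 side stalk genes 3 were higher. In the other complexes NDUFAB1 differed by 0.93, NDUFS3 by 0.77, COX4I1 by 0.63, UQCRQ by 0.61, COX6B1 by 0.53 and UQCRFS1, the Rieske iron-sulfur protein, by 0.48. The 3 lower calls were UQCRC1 (-0.62), NDUFS1, the largest core subunit of complex I (-0.49), and the readthrough ATP5MF-PTCD1 (-0.52). The NDUFS1 call (edgeR adjusted p = 0.035) was lost in 10 of 22 alternative settings, 7 of them a single left-out library, with log2 differences from -0.67 to -0.04 and adjusted p-values up to 0.85. UQCRQ and COX6B1 lost theirs in 10 and 9. For UQCRC1 the libraries read 216, 306 and 217 CPM against 323, 393 and 418.

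These counts depended on single BRG1 knockout libraries. BRG1 knockout 2 was the highest of its group for 72 of the 85 members (84.7%, against 33.2% of all genes), and BRG1 knockout 3 the lowest for 68 (80%, against 39.3%). The median member lay at a log2 ratio of 0.07, 0.43 and -0.20 to its parental mean in BRG1 knockouts 1, 2 and 3, and at -0.15, -0.11 and -0.18 in the BRM knockouts. The median SD of a member's log2 CPM within a group was 0.32 in the BRG1 knockout and 0.10 in either other group. Without BRG1 knockout 1 or without parental 3 there were 9 higher and 2 lower calls against parental, and without BRM knockout 1, 11 and 7. Without BRG1 knockout 2 the higher and lower calls against parental became 9 and 12, and the members' median -0.11 against -0.08 for all genes; without BRG1 knockout 3 they became 21 and 5. Between the knockouts the 24 higher calls became 44 without BRG1 knockout 3, 16 without BRG1 knockout 2 or BRM knockout 1 and 13 without BRM knockout 3, and the 3 lower calls became 0 without BRG1 knockout 1 or BRM knockout 3 and 1 without parental 2 or 3. The order of the 3 libraries was that of their ribosomal protein reads, and the part of either in the other was not tested.

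**Figure D4:**
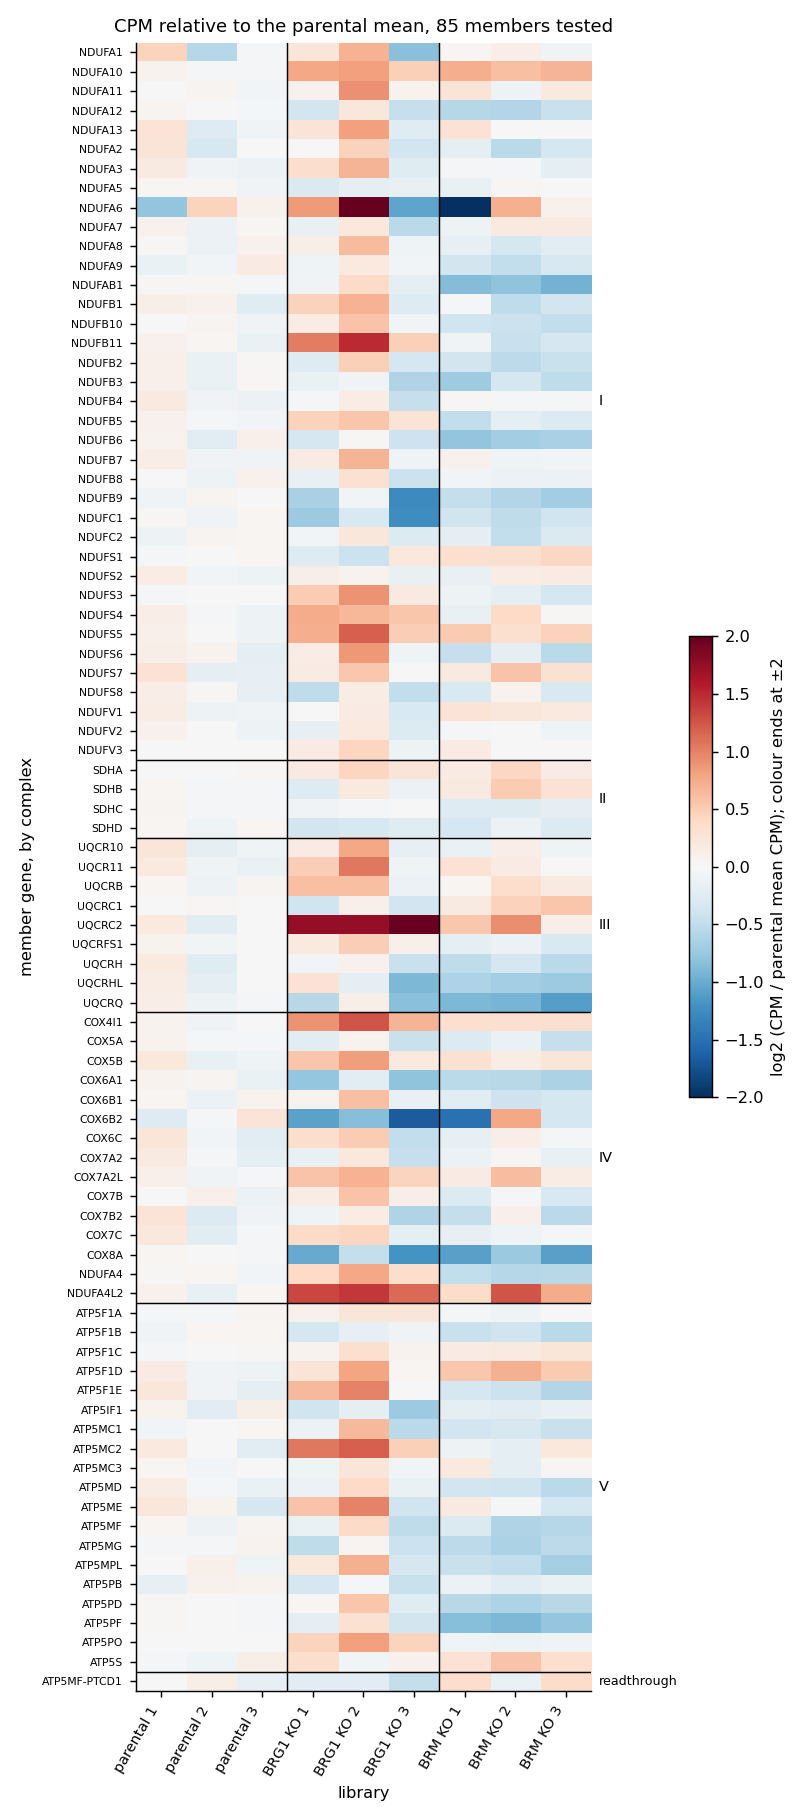
Log2 ratio of each library's CPM to the parental mean for the 85 members tested (rows, by complex) in the 9 libraries (columns); red is above and blue below the parental mean, and colours end at ±2. BRG1 knockout 2 is redder and BRG1 knockout 3 bluer than BRG1 knockout 1 in most rows, whereas UQCRC2, NDUFA10 and COX4I1 are red in all 3 and COX8A and COX6A1 blue in all 3.

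Calls that held did so on both sides of this difference. In the BRG1 comparison UQCRC2, COX4I1, NDUFS5, NDUFA10, ATP5PO and COX8A passed under all 22 alternative settings, of 12 members named by rule. In the BRM comparison ATP5PF, COX8A, NDUFA10, NDUFAB1, NDUFB6 and UQCRQ did, of 14. Between the knockouts ATP5F1E, ATP5MC2, COX4I1, NDUFA4, NDUFAB1, NDUFB11, NDUFS3 and UQCRC2 did, of 14.

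Summed over a complex, the messages moved little. For complex V the parental libraries gave 2194, 2188 and 2193 CPM, the BRG1 knockout 2189, 2705 and 2080 and the BRM knockout 1852, 1794 and 1793. Every BRM knockout sum lay below every parental sum, while the BRG1 knockout spread across them. For complex IV the sums were 1422, 1288 and 1279 CPM, then 1452, 1828 and 1212, then 1143, 1234 and 1129, in the same order, again with every BRM knockout sum below the parental ones. For complex I they were 2010, 1873 and 1864 CPM, then 2052, 2622 and 1752, then 1855, 1813 and 1816, a smaller gap in the same direction. For complexes II and III the BRM knockout overlapped the parental line. These sums were not tested. By TPM, which divides by length and by each library's total, the log2 ratios of group means against parental lay below 0 in the BRG1 knockout, at -0.04, -0.30, -0.19, -0.19 and -0.03 for complexes I to V, where CPM gave 0.16, 0.02, 0.15, 0.17 and 0.09. That unit moved the median of all tested genes to -0.23 in this comparison, so the members' median TPM ratio of -0.14 still lay above it, as their CPM ratio of 0.14 lay above 0.00. In the BRM knockout complexes I, IV and V were negative in both units, at -0.07, -0.19 and -0.27 by CPM and -0.18, -0.32 and -0.27 by TPM.

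The c ring offers a comparison among members, since ATP5MC1, ATP5MC2 and ATP5MC3 differ in their import sequences and give the same mature protein. ATP5MC2 supplied 54.0%, 51.3% and 46.6% of the TPM of the 3 genes in parental libraries, 70.0%, 64.1% and 64.7% in the BRG1 knockout and 50.5%, 52.6% and 58.7% in the BRM knockout. All 3 BRG1 knockout shares lay above all parental ones, a difference of 15.6 percentage points (exact permutation test, two-sided, p = 0.1, the smallest that 3 against 3 allows). ATP5MC3 was lower (difference -8.60 points), at 18.5% ± 2.48 against 27.1% ± 1.70 (SD, n = 3), and ATP5MC1 lower (-6.99 points), at 15.3% ± 3.02 against 22.3% ± 2.13 (exact permutation p = 0.1 for each). With BRM loss the ATP5MC2 share was 53.9% ± 4.22, a difference of 3.29 points from parental that lay within the spread (exact permutation p = 0.5).

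Tissue copies of complex IV subunits ranged from silent to abundant. COX4I2, the lung and hypoxia form of subunit IV, and COX6A2, the heart and muscle form of subunit VIa, had 0 reads in all 9 libraries, COX8C had 4 reads in all, and COX7A1 had 10. COX7B2, known as a testis-enriched copy of COX7B, was abundant: 125, 89.3 and 109 TPM in parental libraries against 44.4, 50.1 and 43.2 TPM for COX7B, or 69.8% ± 5.10 of the pair (SD, n = 3). Its share was 62.9% ± 2.58 in the BRG1 and 67.9% ± 1.88 in the BRM knockout, neither beyond the spread (exact permutation p = 0.2 and 0.6). By CPM, not scaled for length, COX7B2 was the lower of the pair, 20.1 against 65.5 in parental libraries. The gene lengths, weighted by TPM over transcripts, were 542 bases for COX7B2 and 2232 for COX7B. COX6B2, another testis copy, supplied 2.20% ± 0.291 of its pair with COX6B1 in parental and 0.889% ± 0.125 in BRG1 knockout libraries, which did not overlap (exact permutation p = 0.1). In the BRM knockout the COX6B2 shares were 0.880%, 4.82% and 2.11%, on both sides of parental. NDUFA4L2 supplied 4.37%, 3.61% and 4.60% of its pair with NDUFA4 in parental libraries, 7.53%, 6.29% and 7.06% without BRG1 and 7.47%, 13.5% and 9.85% without BRM (exact permutation p = 0.1 for each knockout). These p-values are raw: 18 share comparisons were made, and none can pass an adjusted 0.05 at this size.

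Transcript choice within a gene was tested for 70 members, an analysis added after the data were seen. In the BRG1 knockout 2 of them, NDUFB5 and ATP5F1C, were called for a changed share of at least 1 transcript (edgeR diffSpliceDGE, Simes adjusted p under 0.05), against 7.74% of 11768 genes. In the BRM knockout 1 was, ATP5MG, against 2.34%, and between the knockouts 1 was, NDUFB5, against 6.72%. ATP5F1C encodes the gamma subunit, the central shaft of the rotor, and its ninth exon, 37 bases at chr10:7806974-7807010 on hg38, holds the last coding bases and the stop of the common form. Tissues such as heart and skeletal muscle are known to skip this exon, which changes the end of the protein. The last 40 bases of exon 8 (chr10:7802815-7802854, + strand), joined to the end of the coding sequence in capitals, show the 2 forms, taken from GENCODE release 29 transcripts on hg38.
ENST00000356708, with exon 9: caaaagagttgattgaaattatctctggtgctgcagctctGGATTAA
ENST00000335698, exon 9 skipped: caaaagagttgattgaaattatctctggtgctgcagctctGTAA
The stop codon TAA follows in both, after 4 bases of exon 9 in the first and after 1 base of the next exon in the second.

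Reads assigned to the skipped form numbered 4, 0 and 0 in parental libraries, 607, 483 and 399 in the BRG1 knockout and 15, 35 and 0 in the BRM knockout. Reads assigned to forms with exon 9 numbered 1912, 2562 and 2642, then 1873, 2683 and 2000, then 2387, 2286 and 2816. The skipped share was thus 24.5%, 15.3% and 16.6% without BRG1, and at most 0.219% in parental and 1.49% in BRM knockout libraries (exact permutation p = 0.1 against either group, the smallest that 3 against 3 allows). The gene as a whole did not pass (log2 change 0.16, edgeR adjusted p = 0.33), so the call was on the form and not on the level. In the usage test ATP5F1C had a Simes adjusted p of 0.021; it lost the call without BRG1 knockout 1 (0.054) and without parental 1, 2 or 3 (0.056, 0.091 and 0.2). Fox proteins are known repressors of this exon in muscle; RBFOX2 was at 151, 156 and 143 CPM in parental and 148, 117 and 151 in BRG1 knockout libraries (log2 change -0.11, edgeR adjusted p = 0.54). Other splicing factors, chosen after their values were seen, did pass there: ESRP1, ESRP2 and PTBP1 fell (-3.96, -4.05 and -0.56, edgeR adjusted p = 0.013, 1.5e-04 and 0.012) and QKI rose (1.59, edgeR adjusted p = 4.4e-04). The part of any of them was not tested. These are Salmon's estimates from whole transcripts, with no junction counts, so a read that both forms share is divided by the model.

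NDUFB5, an accessory subunit of the complex I membrane arm, had the firmer call (Simes adjusted p = 4.6e-05, and called without each of the 9 libraries in turn). The transcript behind it, ENST00000476587, annotated as a retained intron and not as coding, had 0, 0 and 0 reads in parental libraries, 392.5, 197 and 165 in the BRG1 knockout and 23.1, 0 and 0 in the BRM knockout. It made up 14.4%, 6.29% and 6.75% of the gene's reads without BRG1. The main coding transcript, ENST00000259037, held 85.5%, 84.6% and 85.1% in parental and 73.2%, 79.8% and 76.5% in BRG1 knockout libraries. Part of the called gene-level rise of NDUFB5 was therefore in reads of this noncoding form. The coding transcript's reads, not scaled for depth, were 1663, 1779 and 1919 in parental and 1994, 2503 and 1867 in BRG1 knockout libraries. BRG1 knockouts 1 and 2 exceeded every parental library. BRG1 knockout 3 was below parental 3 alone, a library with more estimated reads in all (40172192 against 36709911). Unscaled reads therefore cannot rank the level in BRG1 knockout 3 against that in parental 3.

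**Figure D5:**
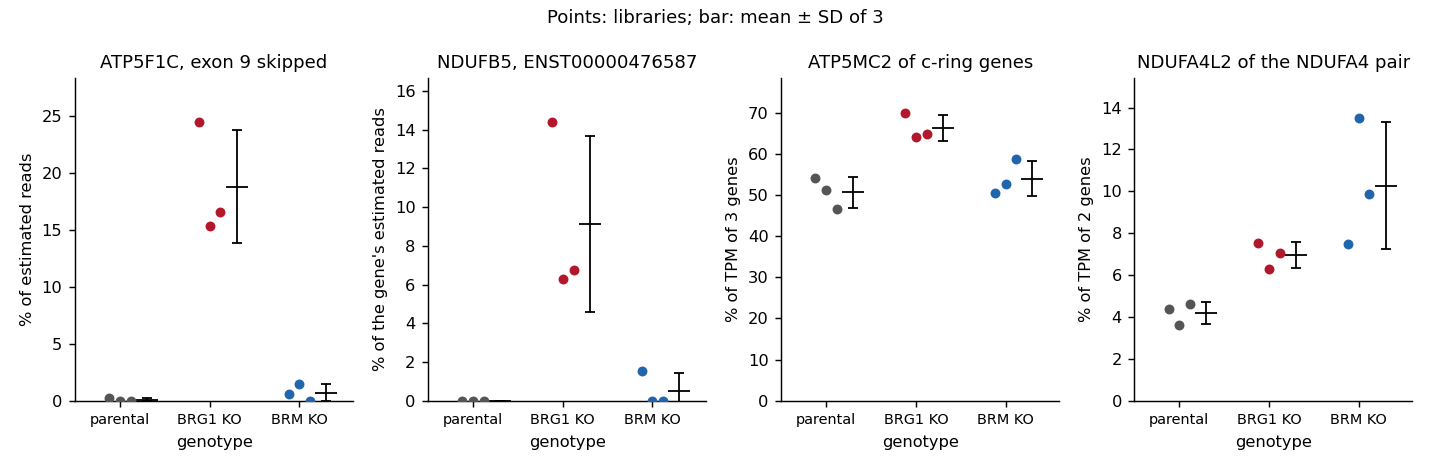
Shares in each of the 9 libraries by genotype, from left: ATP5F1C reads of the form without exon 9, NDUFB5 reads of ENST00000476587, the share of ATP5MC2 in the TPM of the 3 c subunit genes, and that of NDUFA4L2 in the TPM of NDUFA4L2 and NDUFA4. Points are libraries and bars the mean ± SD of 3; the first 3 shares are higher in all BRG1 knockout libraries than in any parental one, and the NDUFA4L2 share is higher in both knockouts.

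Among the partners of these subunits, the 13 genes of mitochondrial DNA showed few calls. Against parental, 1 was called higher and 2 lower in the BRG1 knockout, and 1 higher and 0 lower in the BRM knockout, with list medians of -0.01 and -0.02. Among all tested genes 43.5% and 37.4% were called in these comparisons. The sum of the 13 was 30535, 24678 and 22998 CPM in parental, 27634, 27492 and 23179 in BRG1 knockout and 29377, 28924 and 30010 in BRM knockout libraries, which overlapped. The call in the BRM knockout was MT-CO1, the catalytic subunit of complex IV, at 8335, 6399 and 5886 CPM against 11151, 9526 and 10290 (log2 change 0.59 ± 0.17, edgeR adjusted p = 0.022), where the nuclear COX8A, COX6A1 and NDUFA4 fell. MT-ND2 and MT-ND4L were lower and MT-ND6 higher with BRG1 loss, at -0.48, -0.84 and 0.67. Genes of this chromosome overlap or lie on opposite strands, and no strand setting is known here, so the MT-ND4L and MT-ND6 values are uncertain.

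The electron carriers between the complexes differed by knockout. CYCS, cytochrome c, was at 115, 136 and 143 CPM in parental libraries, 112, 154 and 150 in the BRG1 knockout and 56.6, 82.5 and 48.6 in the BRM knockout (log2 change against parental with BRM loss -1.07 ± 0.21, edgeR adjusted p = 0.003). All BRM knockout libraries of CYCS lay below the others. CYC1, the cytochrome c1 of complex III, did not pass against parental in either. In coenzyme Q synthesis 3 of 11 genes were called higher and 1 lower with BRG1 loss, and 3 higher and 4 lower with BRM loss. Shares over all tested genes were 21.6% higher and 21.9% lower with BRG1 loss, and 21% and 16.4% with BRM loss. PDSS1, which makes the side chain of coenzyme Q, fell in both, at -1.18 ± 0.28 and -2.04 ± 0.28, from 13.9 CPM to 6.12 and 3.38 (edgeR adjusted p = 0.0055 and 4.8e-04). COQ2, the next enzyme, fell with BRM loss, from 11.9 to 4.84 CPM (-1.30 ± 0.19), and COQ9 and COQ8A rose with BRG1 loss (0.74 and 0.92).

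Assembly factors of complex I were called lower in 4 and higher in 2 of 18 with BRG1 loss, and lower in 7 and higher in 1 with BRM loss. Over all tested genes 21.9% were called lower and 21.6% higher with BRG1 loss, and 16.4% and 21% with BRM loss. NDUFAF8 went from 73.2 to 25.1 CPM without BRM (log2 change -1.54 ± 0.26, edgeR adjusted p = 0.0012), and FOXRED1 from 17.9 CPM to 7.26 without BRM and to 11.5 without BRG1 (-1.30 and -0.64). For complex IV, 2 of 22 were higher and 2 lower with BRG1 loss, and 1 higher and 2 lower with BRM loss. COX17, the copper chaperone of complex IV, was lower in both, from 24.5 CPM to 12.6 and 10.7 (-0.96 ± 0.25 and -1.19 ± 0.26, edgeR adjusted p = 0.011 and 0.0044). Of 4 complex II factors SDHAF3 was lower with BRG1 loss (-0.74), and of 6 complex III factors TTC19 was higher with BRM loss (1.07). Of the 4 complex V factors 1 was higher and 1 lower with BRG1 loss, and 2 higher and 1 lower with BRM loss, ATPAF2 being higher (0.74 and 0.79) and TMEM70 lower (-0.48 and -0.43) in both.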

How the data were processed

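RNA-seq of 9 H358 libraries was analysed. Each deposited file gives, per transcript, the estimated counts and TPM that the authors' Salmon run made, per the file headers; Salmon, DESeq2 and hg38 are listed in the submitters' processing notes, without versions or strand setting. Of 203835 transcripts 203746 were assigned to GENCODE 29 genes; the rest, at most 0.0193% of reads, were left out. Here the estimated counts were summed per gene and rounded. edgeR 4.0.16 (R 4.3.3) kept 18205 genes by filterByExpr, scaled by TMM and fitted 1 mean per group to all 9 samples (glmQLFit, robust; 6 residual degrees of freedom). The 3 comparisons used two-sided quasi-likelihood tests with Benjamini-Hochberg adjustment over all genes and a threshold of 0.05; SE is the log2 change divided by the square root of F.

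The members and gene lists were chosen with earlier results of these data known. Named members are, per comparison and complex, the 3 largest called rises and falls with at least 1 log2 CPM, complex II, the most abundant member of each complex, the paralogue pairs, ATP5IF1, COX7A2L and NDUFA4, and in each other list the 3 largest called changes; other names were chosen after their values were seen. Transcript usage (edgeR diffSpliceDGE, limma 3.58.1) was added after the data were seen. Alternatives were RLE scaling, DESeq2 1.42.0, voom, other filters, GC, length and effective length offsets, a replicate block, pseudogene reads and left-out libraries. Promoter and gene models came from RefSeq and GENCODE. Of the members, 46 have annotated pseudogenes that can share reads.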

Additional observations from a re-analysis of the deposited data

How the results depend on the processing

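Against parental, the BRG1 knockout's 14 higher members became 26 without parental 1 and BRG1 knockout 3 together and 5 without BRG1 knockouts 1 and 2 together, a setting chosen after seeing the data; the 3 lower became 6 and 7 there, 6 with DESeq2, 5 with limma voom, 6 with no filter beyond 1 read, 7 with a GC and length offset and 8 with that offset and the replicate block. The BRM knockout's 4 higher became 2 with RLE, 2 with voom, 1 with no filter, 1 with an effective length offset, 8 with the GC and length offset, 8 with that offset and the replicate block and 2 with the replicate block alone; its 12 lower became 34 in a fit of only the 6 samples compared, 20 with the GC and length offset, 19 with it and the block, 22 without parental 1 and BRG1 knockout 3 and 32 without BRG1 knockouts 1 and 2. Between the knockouts the 24 higher became 44 and 14 without those pairs of libraries, and the 3 lower became 1 with no filter, 1 with 6 samples, and 5 with the GC and length offset, with or without the block. Leaving out 1 library at a time gave 9 to 21 higher and 2 to 12 lower (BRG1), 1 to 3 and 5 to 29 (BRM), and 13 to 44 and 0 to 4 (between them), and 2 to 5, 0 to 1 and 0 to 5 transcript usage calls. The replicate block gave 15 and 3, 2 and 10, and 20 and 2. Same-numbered libraries correlated at -0.0792 to 0.175 in their deviations from their group means. The labels do not say that the numbers pair samples, and whether they do was not tested. Adding pseudogene reads gave 15 and 3, 4 and 12, and 24 and 3. No named log2 change reversed; 770 of 880 single values kept their call and 110 lost it. The cause of these shifts was not tested.

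Summed levels by TPM gave log2 ratios of -0.30, -0.19 and -0.19 for complexes II, III and IV in the BRG1 knockout, where CPM gave 0.02, 0.15 and 0.17; of -0.18, -0.20, -0.25 and -0.32 for I to IV in the BRM knockout, where CPM gave -0.07, 0.01, 0.04 and -0.19; and of -0.10 and 0.13 for II and IV between the knockouts, where CPM gave 0.00 and 0.36. Shares by CPM differed by 1.45 (BRG1) and 3.15 (BRM) points for NDUFA4L2, -4.62 and, between knockouts, -5.89 for COX6B2, -4.26 for ATP5MC1 (BRG1), and -10.9 and, between knockouts, -12.9 for ATP5MC3. With 3 libraries a group and a common coefficient of variation of 0.253, small changes are missed.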

Other observations

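Of 17 genes of the TCA cycle and pyruvate dehydrogenase, 1 was called higher and 4 lower in the BRG1 knockout and 2 higher and 3 lower in the BRM knockout (edgeR, adjusted p under 0.05). For this and the next lists, 21.6% of all tested genes were higher and 21.9% lower with BRG1 loss. With BRM loss the shares were 21% and 16.4%. DLAT, a subunit of pyruvate dehydrogenase, went from 105 to 47.8 CPM without BRG1 (log2 change -1.13 ± 0.15, SE) and was at 102 without BRM. FH, fumarase, went from 44.9 to 23.7 CPM without BRM (-0.92 ± 0.17), and IDH3G rose in both (0.88 and 0.61). Among 78 mitochondrial ribosomal protein genes, 7 were higher and 10 lower with BRG1 loss, and 2 higher and 19 lower with BRM loss. MRPS10 was lower in both, from 93.5 CPM to 49.7 and 52.7 (-0.91 and -0.83), and MRPL51 went from 56.6 to 24.9 CPM without BRM (-1.19 ± 0.19). The cytosolic ribosomal proteins differed from these: 60 of 78 tested were higher and 0 lower with BRG1 loss, and 11 higher and 2 lower with BRM loss.

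Of 21 known regulators of mitochondrial genes, 2 were called higher and 4 lower with BRG1 loss, and 4 higher and 8 lower with BRM loss. All tested genes were called at 21.6% higher and 21.9% lower with BRG1 loss, and at 21% and 16.4% with BRM loss. PPARGC1A, the coactivator PGC-1 alpha, was low and rose in both, from 3.07 CPM to 13.3 and 7.74 (log2 change 2.12 ± 0.46 and 1.33 ± 0.45, edgeR adjusted p = 0.0038 and 0.039). HIF1A, the oxygen-regulated factor, went from 900 to 379 CPM without BRG1 (-1.25 ± 0.17), and ESRRA, a nuclear receptor that works with PPARGC1A, from 52.7 to 27.0 CPM (-0.96 ± 0.21). TOP1MT and EPAS1 were higher with BRM loss (1.14 and 0.86). What part any of these had in the members' levels was not tested.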
